A study of Mus musculus with 4 samples.

Results

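The comparison concerned macrophages of perigonadal white fat from mice fed a high-fat diet (HFD), with BLIMP1 conditionally knocked out (CKO) or not (WT). Members were the 11478 cells, of 21867 deposited in the series, that passed the following rule in the 2 HFD libraries. A cell needed at least 500 unique molecular identifiers (UMIs, the counted molecules), at least 300 detected genes and at most 10% of UMIs from mitochondrially encoded genes. It also needed a UMI of at least 2 of the 5 macrophage genes C1qa, C1qb, Csf1r, Adgre1 and Fcgr1. Each cell was then thinned at random to 2000 UMIs, and cells below that depth were dropped, which left 4450 cells in WT HFD and 7028 cells in CKO HFD. The thinned UMIs were pooled per library and scaled to 1000000 (CPM). All cells were sorted as live, CD45-positive, lineage-negative and positive for both CD11b and CD64, and were profiled with the 10x Genomics 3′ workflow. A WT and a CKO library on a normal diet (ND), of 2317 and 2794 cells under the same rule, were used as a reference. The sources used here state neither what drives the knockout nor which exons it deletes, and neither the number of animals per library nor their age or sex. The labels give WT as the only control genotype, so what else CKO and WT animals share is likewise unstated.

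BLIMP1, encoded by Prdm1, is a zinc-finger transcriptional repressor best known for driving B cells into antibody secretion and for restraining interferon-induced and inflammatory genes. In fat, resident macrophages that carry Lyve1, Folr2 and Cd163 line vessels, while obesity adds monocyte-derived cells, among them lipid-associated macrophages that carry Trem2, Gpnmb and lysosomal genes. Chemokines made by fat macrophages, Ccl2 first among them, call in further monocytes.

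There was 1 library per group, so no difference between genotypes could be tested and no p-value is given. Every interval is a 95% interval for counting error alone (exact conditional binomial for ratios, exact Clopper-Pearson for shares), and says nothing of the spread between animals or preparations. Intervals of ratios count each pooled UMI as independent, and so leave out the spread between cells as well. Before thinning, WT HFD members held a median of 14642 UMIs and CKO HFD members of 4362, with 5143 for WT and 4896 for CKO on the normal diet. The mitochondrial limit removed 400 cells in WT HFD and 7 in CKO HFD, and WT HFD stood apart from the other 3 libraries in both respects. The pooled profiles held 8900000 UMIs in WT HFD and 14056000 in CKO HFD, and the 2 libraries shared 12 cell barcodes. Macrophage markers were abundant in both: after thinning, C1qb had a UMI in 84.2% and 91.1% of members. Summed over the marker lists of other cell types, dendritic cell genes stood at 30.2 and 31.7 CPM, neutrophil genes at 22.9 and 20.4 CPM, lymphoid genes at 64.6 and 36.6 CPM, and fibroblast genes at 286 and 196 CPM in WT HFD and CKO HFD.

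Prdm1 itself stood at 21.5 CPM in WT HFD and 21.6 CPM in CKO HFD, and at 33 and 34.9 CPM in WT and CKO on the normal diet. The HFD ratio was 1.01 (0.838 to 1.21), so the 2 libraries could not be told apart at this depth. A 3′ tag outside the deleted exons, which are unknown here, checks neither the deletion nor the labels.

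The HFD libraries differed far more than the ND libraries did. Of 7797 genes with at least 10 CPM in 1 of the 2 HFD libraries, 443 (5.68%) were at least 1.5 times higher in CKO HFD, after 1 CPM was added to both levels, and 1569 (20.1%) at least 1.5 times lower. Under the normal diet the same rule found 114 genes higher (1.38%) and 92 lower (1.12%) of 8246. The median log2 ratio over all tested genes was −0.21 under HFD and 0.03 under the normal diet. Scaling by TMM factors raised all HFD log2 ratios by 0.24 and turned the split to 910 higher and 748 lower, 54.9% of calls higher in place of 22%. Ratios are therefore best read against the median of all genes. More than 3-fold distances were found for 29 genes higher and 58 lower. Of the 443 genes higher under HFD, 415 were measured on the normal diet, where 12 were also higher and 15 were lower in CKO. Of the 1569 lower genes, 1486 were measured there, and 15 were also lower and 12 higher in CKO.

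**Figure D1:**
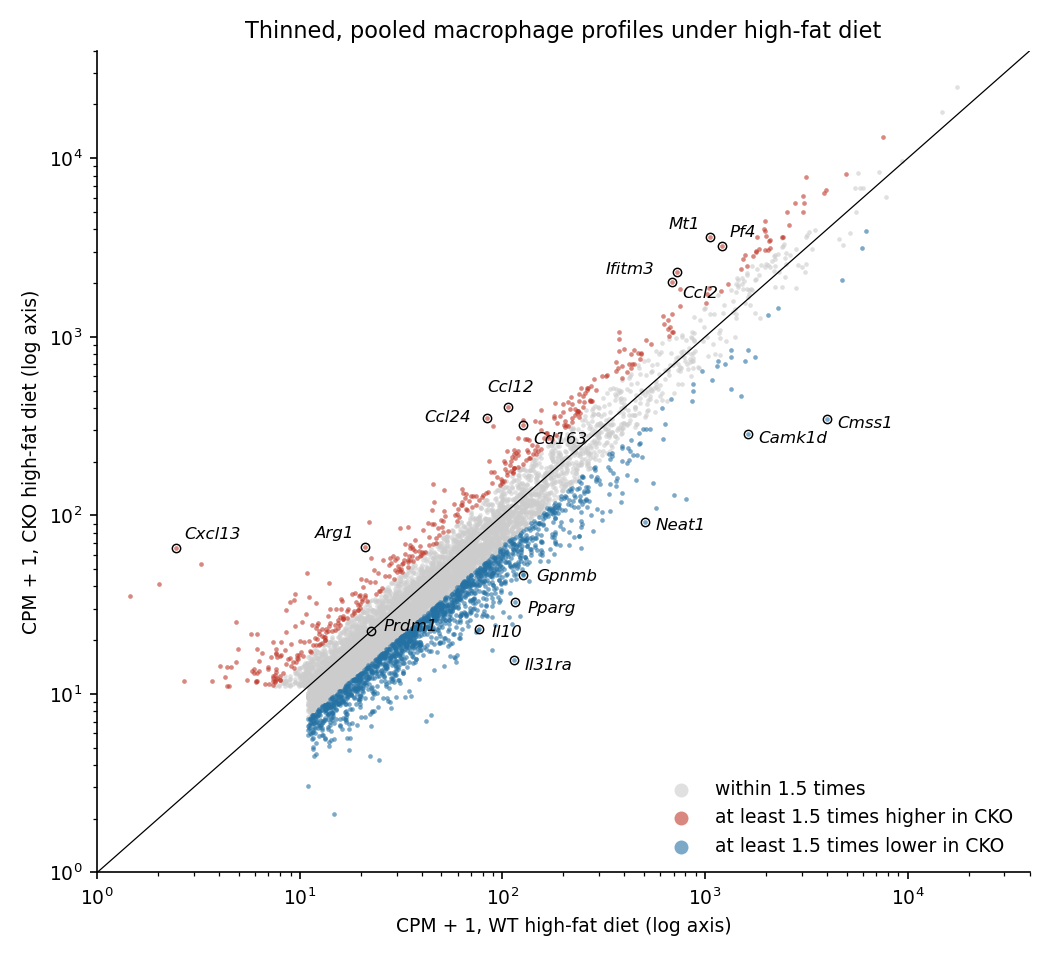
Pooled CPM + 1 of each tested gene in WT HFD (horizontal, log axis) and CKO HFD (vertical, log axis), with 1 point per gene, coloured where the 2 levels lie at least 1.5 times apart. The 443 genes above the band and the 1569 below it include Cxcl13, far above the diagonal, and Cmss1, far below it.

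The genes that were lower were long. Gene span, the distance from the first to the last annotated base, had a median of 84 kb among the 1569 lower genes and 6.31 kb among the 443 higher ones. In 5 equal groups of genes by span, with median spans of 4.74, 13.2, 25.8, 49.5 and 122 kb, the median log2 ratio under HFD was 0.13, −0.07, −0.19, −0.32 and −0.64. Among the longest genes 56% were lower, against 5.13% of the shortest. The CKO over WT medians on the normal diet ran only from 0.01 in the shortest group to 0.05 in the longest. Across diets the log2 median of HFD over ND went from 0.39 to −1.25 in CKO and from 0.28 to −0.56 in WT, so both HFD libraries held less long-gene signal than the ND libraries, CKO HFD the least. Spearman's rho between span and log2 ratio was −0.56 over the 7797 genes under HFD and 0.0844 over the 8246 under ND, given as a description across genes that share 2 libraries.

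**Figure D2:**
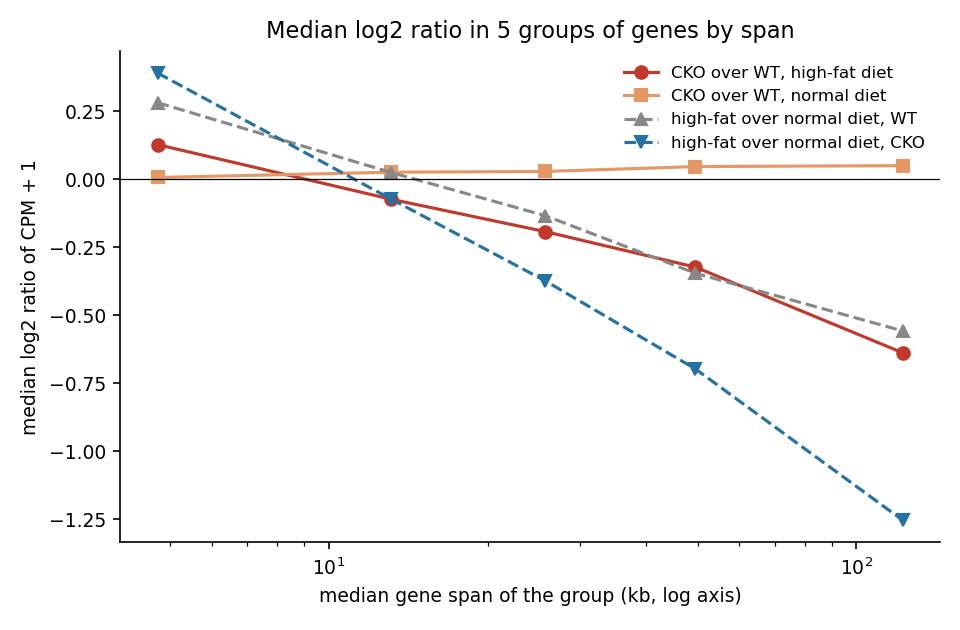
Median log2 ratio of CPM + 1 (vertical) in 5 groups of genes by median span in kb (horizontal, log axis), with 1 line per comparison: CKO over WT under HFD and under ND, and the diet contrast in each genotype. The CKO over WT line under HFD drops from 0.13 to −0.64 while the line for the normal diet stays between 0.01 and 0.05.

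When the median of each of 20 span bins was taken off, 581 genes (7.45%) were higher and 444 (5.69%) lower. The same step left 1.13% higher and 1.33% lower on the normal diet. Of the original calls, 355 of the 443 higher and 402 of the 1569 lower genes stayed called. Of 13 tested genes of the nuclear-retained RNA list 8 were lower and 1 higher, where 20.1% and 5.68% of all tested genes were. Gm42418, an RNA gene known to collect ribosomal RNA reads, was at 47848 CPM in WT HFD and 6879 CPM in CKO HFD and at 32973 and 38719 CPM in WT and CKO on the normal diet, and so was low in CKO HFD alone. The 21 genes of that list found in the files summed to 55549.6 CPM in WT HFD and 11383 CPM in CKO HFD, most of it from Gm42418. In cells of the same 2 libraries that failed the macrophage rule and carried at least 3 fibroblast genes, 39 and 51 cells, Gm42418 stood at 60103 and 8922 CPM. Malat1, an abundant nuclear RNA of the list, stood at 5000 and 5539 CPM in those cells, in the opposite order. With 1 library per group, preparation and genotype cannot be told apart in these values.

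Of the 443 higher genes, 195 (44.0%) lay at least 1.5 times from the mean of the 2 ND libraries in CKO HFD alone, and 92 (20.8%) in WT HFD alone. For 83 (18.7%) both HFD libraries lay on the same side of ND, for 14 on opposite sides, and for 59 neither was 1.5 times away. Of the 1569 lower genes, 714 (45.5%) were apart in CKO HFD alone, 143 (9.11%) in WT HFD alone and 568 (36.2%) in both on the same side. The same shares over all tested genes were not counted, so these shares lack a background and do not set the called genes apart.

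Il10, the anti-inflammatory cytokine that BLIMP1 is known to act on in T cells, was lower in CKO under both diets. It stood at 75.8 CPM in WT HFD and 22.1 CPM in CKO HFD, and at 87.6 and 29.9 CPM in WT and CKO on the normal diet. Both WT libraries were high and both CKO libraries low, and the ratios were 0.291 (0.253 to 0.333) under HFD and 0.341 (0.283 to 0.409) under ND. Of 1486 genes lower under HFD and measured on the normal diet, 15 were also lower there and 12 higher. Over all genes tested on the normal diet 1.12% were lower. Il10 (chr1:131019845-131024974, GRCm38) spans only a few kilobases, and with the span trend taken off its log2 ratio was −1.79. It was lower within resident-set, lipid-associated-set, dividing-set and set-free cells alike, at HFD ratios of 0.449, 0.255, 0.301 and 0.20 in that order. These sets are groups of cells positive for marker genes, named with the resident genes. For ratios within sets, resident-set and lipid-associated-set cells are positive for that set alone, while dividing-set cells may be positive for another set too. Among the genes of the BLIMP1 target and partner list, 13 of 17 were tested, and 5 were lower, where 20.1% of all tested genes were, and none higher, with a median log2 ratio of −0.08; that median became 0.16 under TMM scaling. Ciita, the switch for MHC class II transcription and a textbook BLIMP1 target, stood at 144 CPM in WT HFD and 73.2 CPM in CKO HFD (ratio 0.509, 0.468 to 0.553). Bach2, a repressor that opposes BLIMP1 in lymphocytes, stood at 34.7 and 15.3 CPM (ratio 0.441). It is a long gene, and with the span trend off its log2 ratio was −0.23. Xbp1, which acts beside BLIMP1 in plasma cells, was level between the libraries at 129.7 and 139 CPM. Ccl8, a chemokine proposed as a BLIMP1 target, stood at 208 and 210.2 CPM under HFD (ratio 1.01, 0.951 to 1.07) and at 194 and 122 CPM in WT and CKO on the normal diet.

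CC chemokines draw monocytes and other leukocytes into tissue. Of 12 fixed genes 11 were tested, and 8 were higher in CKO HFD and none lower, where 5.68% of all tested genes were higher. The list median was a log2 ratio of 0.92, against −0.21 over all genes, and 0.75 with the span trend off. On the normal diet the median was −0.30, with 0 higher and 3 lower, where 1.38% and 1.12% of all genes tested on that diet were.

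Ccl2, the main ligand of the monocyte receptor CCR2, stood at 684 CPM in WT HFD and 2037 CPM in CKO HFD, and at 699 and 549 CPM in WT and CKO on the normal diet. Only CKO HFD was high, at a ratio of 2.98 (2.9 to 3.06). Ccl7, a second CCR2 ligand beside it on chromosome 11 (chr11:82045712-82047525), followed the same order with 377 CPM in WT HFD and 1056 CPM in CKO HFD and 466 and 324 CPM on the normal diet. Its ratio was 2.8 (2.7 to 2.91). Ccl12, a close relative of Ccl2 whose reads may in part be shared with it, stood at 106 and 405 CPM under HFD, a ratio of 3.82 (3.57 to 4.1). Again CKO HFD was the high library, with 185 and 160.0 CPM on the normal diet.

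Ccl24, an eotaxin made by alternatively activated and resident macrophages, followed another order. It stood at 82.9 CPM in WT HFD and 350.2 CPM in CKO HFD and at 322 and 329 CPM in WT and CKO on the normal diet. Here WT HFD was the low library and the other 3 were level, which gave a ratio of 4.22 (3.91 to 4.57). Ccl6 and Ccl9, abundant in every library, were within 1.5 times, at 1543 and 1842 CPM and at 980.1 and 948 CPM. The inflammatory chemokines Ccl3, Ccl4 and Ccl5, picked with their values known, had ratios of 1.53 (1.41 to 1.65), 1.9 (1.8 to 2.01) and 1.93 (1.59 to 2.37). With the span trend off the log2 ratio of Ccl3 was 0.29, which is no longer past the fold. In the fibroblast-like cells the list summed to 205 and 1559 CPM (16 and 159 UMIs), against 4296 CPM in WT HFD and 7416 CPM in CKO HFD in macrophages. Fibroblasts make several of these chemokines and free macrophage RNA also enters droplets; the part of either in the macrophage values was not tested.

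The CXC list was shifted alike, with 6 of 9 tested genes higher, against 5.68% of all tested genes, and none lower. Its median log2 ratio was 0.71. Cxcl13, which attracts B cells, showed the widest ratio of any named gene. It stood at 1.46 CPM in WT HFD and 64.8 CPM in CKO HFD and at 14.7 and 13.4 CPM in WT and CKO on the normal diet, so WT HFD was far below and CKO HFD far above the ND pair. The ratio was 44.4 (25.8 to 83.7), from 13 and 911 UMIs. In CKO HFD the 1% of cells with most Cxcl13 held 75.6% of its UMIs, so few cells carried this difference. Pf4, a platelet-type chemokine abundant in resident macrophages, stood at 1204 CPM in WT HFD and 3233 CPM in CKO HFD and at 2415 and 2542 CPM on the normal diet. Its ratio of 2.68 (2.63 to 2.74) came with a low WT HFD library and a CKO HFD library above both ND libraries. The neutrophil attractant Cxcl2 was within 1.5 times, at 1886 and 2529.8 CPM. Cxcl9, an interferon-gamma target, was at 7.53 and 28.4 CPM under HFD (ratio 3.77, 2.9 to 4.96) and at 47 and 19.7 CPM in WT and CKO on the normal diet, where the order was the opposite.

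**Figure D3:**
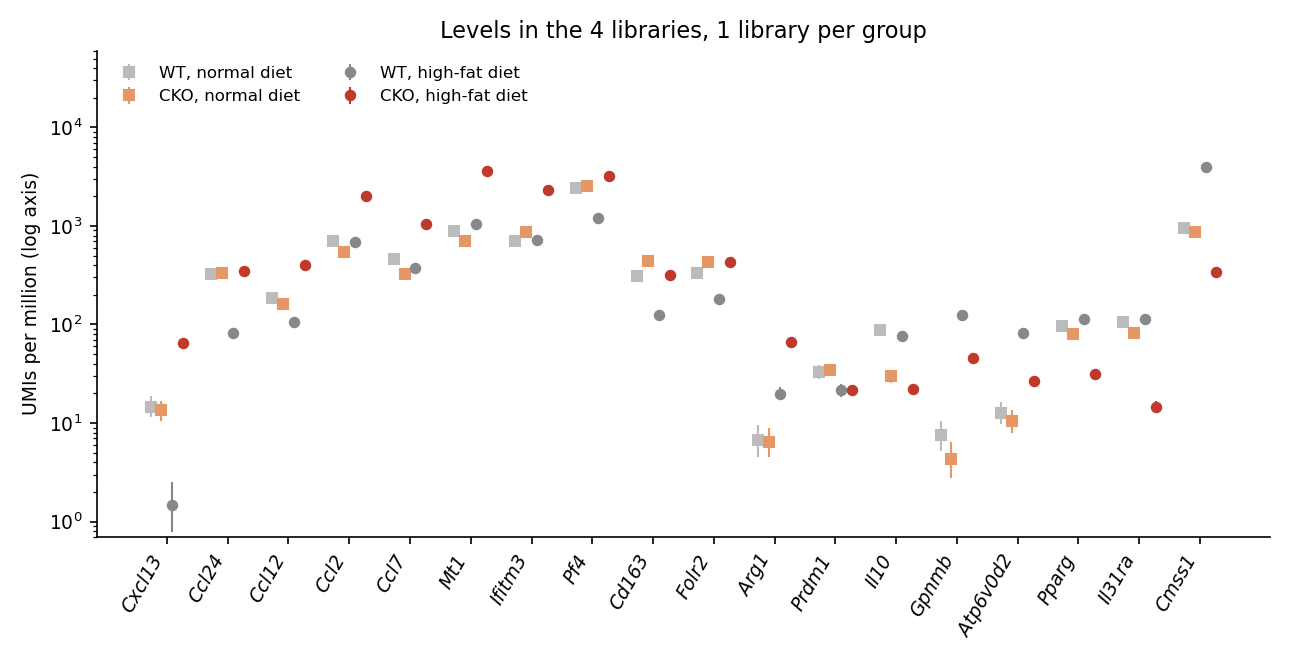
CPM (vertical, log axis) of 18 genes in the 4 libraries, with 1 point per gene and library and bars for the exact 95% Poisson counting interval. CKO HFD is the highest library for Ccl2, Ccl7, Ccl12, Mt1 and Ifitm3, both CKO libraries are low for Il10, and WT HFD is high for Gpnmb, Atp6v0d2 and Cmss1.

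Of 22 tested genes of resident fat macrophages 12 were higher in CKO HFD in the pooled profiles, and more cells carried the set used to mark such cells. A cell was called positive for a set with a UMI of at least 2 of its 6 genes: Lyve1, Folr2, Cd163, Timd4, F13a1 and Cbr2 for the resident set, Trem2, Gpnmb, Spp1, Lpl, Atp6v0d2 and Mmp12 for the lipid-associated set, and Mki67, Top2a, Cdk1, Birc5, Pclaf and Stmn1 for the dividing set. At 2000 UMIs per cell the resident set was found in 25.6% of WT HFD cells (interval 24.3 to 26.9) and 48.9% of CKO HFD cells (47.8 to 50.1). On the normal diet the shares were 52.5% in WT and 61.8% in CKO, so WT HFD was the low library. At full depth they were 52.1% and 61.4% under HFD, where WT HFD cells were over 3 times deeper. None of the 39 and 51 fibroblast-like cells was positive for the resident set, whose exact upper bounds are 9.03% and 6.98%.

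The 12 higher genes of the resident list stood against 5.68% of all tested genes, none was lower, and the median log2 ratio was 0.71. In fibroblast-like cells the list summed to 3103 and 2637 CPM, in the opposite order. Cd163, the haemoglobin scavenger receptor, stood at 125 CPM in WT HFD and 319 CPM in CKO HFD and at 309 and 442 CPM in WT and CKO on the normal diet, a ratio of 2.55 (2.39 to 2.73) with WT HFD lowest. Folr2, a folate receptor, stood at 180.3 CPM in WT HFD and 427 CPM in CKO HFD and at 336 and 435 CPM on the normal diet, and WT HFD was again the low one. The ratio was 2.37 (2.24 to 2.5). Ltc4s, the leukotriene C4 synthase, stood at 44.4 and 149.7 CPM under HFD (ratio 3.37, 3.03 to 3.76) and at 157 and 195 CPM on the normal diet, in the same order. Mrc1, the mannose receptor, and F13a1, a coagulation factor subunit, are long genes of this list that were within 1.5 times, at 1185 and 983 CPM and at 733 and 703 CPM. The lectins Cd209f and Cd209g, near-identical copies whose reads the counting could split, had ratios of 2.55 (2.24 to 2.9) and 3.15 (2.58 to 3.89).

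Among cells positive for the resident set alone, the median log2 ratio of the resident list was −0.08, and in set-free cells 0.20. Within those resident-set cells Folr2 had a ratio of 1.33 and Cd163 of 1.22, far below the pooled ratios; both genes helped to define the set. Ccl2 and Ccl12 stayed at 1.95 and 2.09 there, and Pf4 at 2.11.

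Alternative activation genes had 6 of 14 tested members higher and 1 lower, where 5.68% and 20.1% of all tested genes were. Their median log2 ratio was 0.45. Arg1, the arginase that consumes arginine, stood at 19.9 CPM in WT HFD and 65.8 CPM in CKO HFD and at 6.69 and 6.44 CPM on the normal diet, so that CKO HFD was the high library. The ratio was 3.31 (2.81 to 3.91). Retnla, a secreted resistin-like protein, was among the most abundant transcripts, at 7569.6 CPM in WT HFD and 13131 CPM in CKO HFD and 8395 and 12221 CPM in WT and CKO on the normal diet. Its CKO library was the higher one under both diets, with ratios of 1.73 (1.72 to 1.75) and 1.46 (1.44 to 1.47). Mgl2, a galactose-binding lectin, had a ratio of 1.53 (1.48 to 1.58), from 694 and 1062 CPM.

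Of 26 lipid-associated macrophage genes 25 were tested, and 12 were lower in CKO HFD and 1 higher, where 20.1% of all genes were lower. The median log2 ratio was −0.58, and −0.56 with the span trend off. In set-free cells it was −0.23, which is 0.04 above the median of all genes there. The lipid-associated set was found in 35% of WT HFD cells (33.6 to 36.4), 21.2% of CKO HFD cells (20.2 to 22.1), 11% in WT ND and 7.55% in CKO ND. Both HFD libraries were above both ND libraries, WT HFD the furthest. At full depth the HFD shares were 74.1% and 37.2%. Of the fibroblast-like cells 10.3% and 11.8% were positive at 2000 UMIs.

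Gpnmb, a membrane glycoprotein of lysosome-rich macrophages, stood at 126 CPM in WT HFD and 45.4 CPM in CKO HFD and at 7.55 and 4.29 CPM on the normal diet. WT HFD was highest and CKO HFD lay between it and the ND pair, at a ratio of 0.361 (0.327 to 0.398). Atp6v0d2, a proton pump subunit of osteoclasts and lipid-laden macrophages, stood at 82.4 CPM in WT HFD and 26.5 CPM in CKO HFD and at 12.7 and 10.4 CPM on the normal diet, a ratio of 0.322 (0.284 to 0.365). Lpl, the lipase that frees fatty acids from lipoproteins, stood at 1632 and 844 CPM (ratio 0.517, 0.505 to 0.53) and the lipid droplet coat Plin2 at 1079 and 570.1 CPM (ratio 0.528, 0.513 to 0.544). The cathepsins Ctsl and Ctsk were at ratios of 0.473 and 0.423. In set-free cells the ratio of Ctsl was 0.767 and that of Plin2 0.687, neither past the fold. Apoe, the lipoprotein ligand, and Lgals3, a galectin, were within 1.5 times, at ratios of 0.894 and 0.67. Within cells of the lipid-associated set alone the list median was −0.32 and Gpnmb stood at a ratio of 0.648, with the caution that both Gpnmb and Atp6v0d2 define that set. Over the 26 genes the pooled sum was 20134 CPM in WT HFD and 15829 CPM in CKO HFD. In fibroblast-like cells it was 8513 and 10167 CPM, the opposite order, but single genes differed. Lpl stood there at 1359 and 696 CPM, Plin2 at 103 and 68.6 CPM, Ctsl at 1487 and 1059 CPM and Ctsk at 436 and 265 CPM. Lpl, Ctsl and Ctsk were lower in CKO HFD as in macrophages. Gpnmb stood at 103 and 88.2 CPM, Apoe at 538 and 510 CPM, and Lgals3 at 38.5 and 78.4 CPM. Few of the 39 and 51 cells had a UMI of Plin2 (6 and 7), Gpnmb (7 and 9) or Lgals3 (3 and 8). Those 3 genes therefore give no order there.

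Pparg, the nuclear receptor of lipid storage genes, stood at 114 CPM in WT HFD and 31.5 CPM in CKO HFD and at 96.9 and 80.4 CPM in WT and CKO on the normal diet. CKO HFD was the low library, at a ratio of 0.276 (0.246 to 0.308) and a log2 ratio of −1.18 with the span trend off. The list of PPARG and LXR targets had 2 of 23 tested genes higher, 3 lower and a median log2 ratio of −0.18 that became 0.06 under TMM scaling. Of 37 cathepsin and lysosome genes 7 were lower and none higher, and of 18 subunits of the vacuolar proton pump 3 were lower and none higher, shares at or near the 20.1% of all genes. Of 26 tested lipid uptake and droplet genes 7 were lower and none higher, with a median log2 ratio of −0.35 that was −0.09 with the span trend off.

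Of 21 tested genes of the classical monocyte list 10 were higher, where 5.68% of all tested genes were, and 1 was lower, with a median log2 ratio of 0.50. The list summed to 16156 CPM in WT HFD and 23466 CPM in CKO HFD in macrophages and to 15000 and 28490.2 CPM in the fibroblast-like cells of the same libraries, a shift of the same direction at a ratio of 1.9. Plac8, a small cysteine-rich protein of blood monocytes, stood at 30.2 CPM in WT HFD and 83.7 CPM in CKO HFD and at 221 and 193 CPM on the normal diet, so WT HFD was lowest and CKO HFD lay between it and ND. The ratio was 2.77 (2.42 to 3.17). S100a6, a calcium-binding protein, stood at 1970.3 CPM in WT HFD and 4445 CPM in CKO HFD (ratio 2.26, 2.22 to 2.29) and at 2222 and 2492 CPM on the normal diet, with CKO HFD the high library. In fibroblast-like cells S100a6 was at 4218 and 14284 CPM, a shift of the same direction. Ccr2, the receptor that monocytes need to enter fat, was within 1.5 times at 868 and 669 CPM, a ratio of 0.771 (0.748 to 0.795). Lyz2, lysozyme, was within 1.5 times as well, at 7179 and 8343 CPM.

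Of 50 fixed interferon-stimulated genes 31 were tested, and 9 were higher, where 5.68% of all tested genes were, and none lower. The median log2 ratio was 0.32. In fibroblast-like cells the list summed to 4667 and 6902 CPM. Ifitm3, an antiviral membrane protein held here in the monocyte list, stood at 722 CPM in WT HFD and 2315 CPM in CKO HFD and at 705 and 858 CPM in WT and CKO on the normal diet. Only CKO HFD was high, with a ratio of 3.21 (3.12 to 3.29); the paralogue Ifitm6, whose reads could in part be shared, had a ratio of 4.33 (3.71 to 5.08). In fibroblast-like cells Ifitm3 was at 1589.7 and 3402 CPM. Ifi27l2a, a small interferon-inducible mitochondrial protein, stood at 754 CPM in WT HFD and 1845 CPM in CKO HFD (ratio 2.45, 2.38 to 2.51) and at 591 and 852 CPM on the normal diet. It stood at 654 and 1284 CPM in fibroblast-like cells, in the same order. Gbp2, an interferon-inducible GTPase, had a ratio of 2.82 (2.15 to 3.73) at low levels, 7.53 and 21.2 CPM, while both ND libraries were higher at 50.5 and 37 CPM. Bst2 or tetherin, which holds budding viruses on the cell and was picked with its values known, stood at 116 and 222 CPM (ratio 1.92, 1.79 to 2.06) and at 121 and 130.3 CPM on the normal diet. Ifit1, a classical target of type I interferon also picked with its values known, stood at 6.29 and 5.55 CPM.

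BLIMP1 is known to bind sequences that overlap the interferon response element, so the 250 bases before the RefSeq start of Bst2 and Gbp2 (GRCm38.p6, 5′ to 3′ on the coding strand) are shown with matches on either strand to that element, read as GAAA, any 2 bases and GAAA again, in capitals. The Bst2 window is chr8:71537473-71537722 on the minus strand and the Gbp2 window chr3:142620413-142620662 on the plus strand.
Bst2: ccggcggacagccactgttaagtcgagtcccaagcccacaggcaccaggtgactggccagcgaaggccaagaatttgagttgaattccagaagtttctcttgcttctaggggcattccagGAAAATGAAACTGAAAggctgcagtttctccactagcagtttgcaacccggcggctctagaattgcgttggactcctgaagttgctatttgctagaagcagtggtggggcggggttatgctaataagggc
Gbp2: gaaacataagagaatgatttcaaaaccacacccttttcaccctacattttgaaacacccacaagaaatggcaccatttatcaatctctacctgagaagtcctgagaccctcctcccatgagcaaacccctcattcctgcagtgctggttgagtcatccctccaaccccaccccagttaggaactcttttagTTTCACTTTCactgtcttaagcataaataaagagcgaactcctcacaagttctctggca
Bst2 holds a pair of overlapping matches, GAAAATGAAA and GAAACTGAAA, and Gbp2 holds 1 match on the other strand, TTTCACTTTC. In windows from 250 bases before to 50 after the start, this motif was found in 26 of the 41 interferon list genes with a RefSeq entry (63.4%), 4.08% of all tested genes and 3.44% of all 32851 promoters. It was found in 5.35% of the genes higher in CKO HFD and 3.74% of those lower. The letters AGNGAAAG, searched as the core bound by BLIMP1, were in 9.3% of the higher genes, 10.3% of the lower ones, 9.4% of all tested genes and 8.63% of all promoters. A match is a description of letters and not a bound site.

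The metallothioneins Mt1 and Mt2, small cysteine-rich proteins that buffer zinc and copper, were higher in CKO HFD. Mt1 stood at 1059 CPM in WT HFD and 3625 CPM in CKO HFD and at 881 and 710.3 CPM in WT and CKO on the normal diet, and CKO HFD was the only high library. The ratio was 3.42 (3.35 to 3.5). Mt2, its neighbour on chromosome 8, stood at 50.6 CPM in WT HFD and 138 CPM in CKO HFD and at 127 and 130.1 CPM on the normal diet, so that here WT HFD was the low library. Its ratio was 2.72 (2.46 to 3.02). Both genes were higher within each cell set, with ratios of 3.14, 2.58, 2.45 and 3.18 for Mt1 in resident-set, lipid-associated-set, dividing-set and set-free cells. The other list members were mixed. Of the 15 tested genes of the metallothionein and zinc list 3 were higher and 1 lower, where 5.68% and 20.1% of all tested genes were. Their median log2 ratio was −0.26. That median was 0.00 with the span trend off and 1.43 over the members with at least 50 CPM. The latter is the log2 ratio of Mt2 itself, and so adds nothing on the other members. Slc39a1, an importer, was within 1.5 times at 67.4 and 89.7 CPM. In fibroblast-like cells Mt1 stood at 2756 and 4461 CPM, in the same order as in macrophages, and Mt2 at 385 and 294 CPM, in the opposite order.

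The 250 bases before the RefSeq start of both genes (GRCm38.p6) were searched for the letters of the metal response element. Metal-bound MTF1 is known to induce metallothionein genes through such elements. The windows lie on the plus strand at chr8:94178839-94179088 for Mt1 and chr8:94172368-94172617 for Mt2. Whether the matches are the elements in use was not tested. Matches to TGCACNC or TGCGCNC on either strand are in capitals.
Mt1: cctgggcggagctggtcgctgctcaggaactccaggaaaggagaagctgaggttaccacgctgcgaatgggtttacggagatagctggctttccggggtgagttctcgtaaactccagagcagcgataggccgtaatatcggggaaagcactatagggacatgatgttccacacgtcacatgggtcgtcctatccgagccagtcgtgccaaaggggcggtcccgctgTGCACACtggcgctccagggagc
Mt2: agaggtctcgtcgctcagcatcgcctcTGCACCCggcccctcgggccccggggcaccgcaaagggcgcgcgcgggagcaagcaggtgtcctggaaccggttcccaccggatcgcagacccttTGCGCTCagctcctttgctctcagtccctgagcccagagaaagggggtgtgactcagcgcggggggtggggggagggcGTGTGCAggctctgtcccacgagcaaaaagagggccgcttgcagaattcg
Mt1 holds 1 match in this window, TGCACAC, and Mt2 holds 3. The motif was found in 9 of 16 list genes with an entry, in 40.9% of all tested genes and in 25.7% of all promoters, so that its letters are common.

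Genes induced by glucocorticoids had 8 of 17 tested members higher and 2 lower, where 5.68% and 20.1% of all tested genes were. Their median log2 ratio was 0.53, which was 0.77 with the span trend off. In fibroblast-like cells the list summed to 7089.7 and 10353 CPM. Mt1, Mt2 and Cd163 belong to this list too. Tsc22d3, the glucocorticoid-induced leucine zipper, stood at 144 CPM in WT HFD and 334 CPM in CKO HFD and at 139.6 and 216 CPM in WT and CKO on the normal diet. Its CKO library was the higher one under both diets, with ratios of 2.32 (2.18 to 2.47) and 1.55 (1.4 to 1.7). In fibroblast-like cells Tsc22d3 stood at 89.7 and 216 CPM, in the same order, with a UMI in 6 of 39 and 16 of 51 cells. Dusp1, a phosphatase of stress kinases, stood at 1605 and 2484 CPM (ratio 1.55, 1.52 to 1.58; 1.29 in set-free cells). Zbtb16, a transcription factor gene, went the other way, at 26.6 and 9.75 CPM (ratio 0.366, 0.294 to 0.454). Dusp1 also responds to tissue dissociation. Of 34 dissociation and heat-shock genes 8 were higher and 4 lower, where 5.68% and 20.1% of all tested genes were. Their median log2 ratio was 0.29. Fos, the usual leading marker of that response, was within 1.5 times at 2811 and 3112 CPM, while Hspa1a was at a ratio of 2.27 (2.12 to 2.43) under HFD and 2.07 (1.81 to 2.38) under ND; its reads could be shared with its copy Hspa1b.

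Respiratory chain transcripts split by the genome that encodes them. Of 48 nuclear-encoded subunits 28 were higher in CKO HFD, where 5.68% of all tested genes were, and none lower. Their median log2 ratio was 0.66, and they summed to 13902 CPM in WT HFD and 21808 CPM in CKO HFD. Uqcr11, a subunit of complex III, stood at 243 CPM in WT HFD and 518 CPM in CKO HFD and at 304 and 287 CPM on the normal diet, a ratio of 2.14 (2.04 to 2.24). Cox8a, of complex IV, stood at 658 and 1246 CPM (ratio 1.89, 1.84 to 1.95), and Atp5e, of the ATP synthase, at 683 and 1341 CPM (ratio 1.96, 1.91 to 2.02). CKO HFD was the high library for these 3 genes. With the span trend off the list median was 0.56.

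Of the 13 mitochondrially encoded genes 6 were lower and 1 higher, where 20.1% and 5.68% of all tested genes were. They summed to 28332 CPM in WT HFD and 18879 CPM in CKO HFD. The ND libraries summed to 18356 and 19586 CPM, so WT HFD was the high library. The genes mt-Co3 and mt-Atp6 had ratios of 0.441 (0.435 to 0.448) and 0.532 (0.525 to 0.538), while mt-Co1 was within 1.5 times at 0.775. Both shifts were also measured in fibroblast-like cells, where the nuclear list summed to 10320.5 and 20931 CPM and the mitochondrial list to 24038 and 11657 CPM. Members of WT HFD thus held more mitochondrial RNA in the library in which 400 cells were over the mitochondrial limit; the part of cell damage in these values was not tested.

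Among the lowest single genes were long genes and nuclear RNAs. Cmss1, a ribosome biogenesis gene at chr16:57302000-57606864, stood at 3982 CPM in WT HFD and 344 CPM in CKO HFD and at 955 and 864 CPM in WT and CKO on the normal diet. WT HFD lay far above and CKO HFD below the ND pair, which gave a ratio of 0.0864 (0.0838 to 0.089) and a log2 ratio of −3.53, or −2.63 with the span trend off. In fibroblast-like cells Cmss1 stood at 5026 and 284 CPM, lower in CKO HFD as well. Camk1d, a calcium-dependent kinase, stood at 1618 CPM in WT HFD and 283 CPM in CKO HFD and at 1125 and 1311 CPM on the normal diet (ratio 0.175, 0.169 to 0.181), and in fibroblast-like cells at 1564 and 88.2 CPM. Cdk8, a kinase of the Mediator complex, Lars2, a mitochondrial leucyl-tRNA synthetase, and Gphn, the scaffold gephyrin, had ratios of 0.152, 0.184 and 0.189. In fibroblast-like cells they stood at 885 and 186 CPM, 1051 and 108 CPM, and 910 and 127 CPM, lower in CKO HFD as well. Neat1, the RNA that builds paraspeckles, stood at 503 and 91.2 CPM (ratio 0.181, 0.17 to 0.193) and at 529.6 and 560.0 CPM on the normal diet.

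Il31ra, a receptor subunit for the itch cytokine IL-31, stood at 113 CPM in WT HFD and 14.5 CPM in CKO HFD and at 107 and 82.9 CPM in WT and CKO on the normal diet. CKO HFD was the low library, the ratio was 0.128 (0.109 to 0.149), and the log2 ratio with the span trend off was −2.40. It was lower in all 4 cell sets, at ratios of 0.0975, 0.153, 0.19 and 0.112 in resident-set, lipid-associated-set, dividing-set and set-free cells. In fibroblast-like cells Il31ra stood at 192 and 9.8 CPM, lower in CKO HFD as well. It had a UMI there in 12 of 39 and 1 of 51 cells. Of 22 tested cytokine receptors 3 were lower and none higher, a share under that of all genes.

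Genes of NF-kB signalling and its feedback had 10 of 26 members lower, against 20.1% of all tested genes, and 1 higher, with a median log2 ratio of −0.27 and −0.25 with the span trend off. That median was −0.03 under TMM scaling, and so depends on the scaling. Relative to the median of all genes 4 members were lower and 3 higher, where 827 and 841 of all 7797 tested genes were. Tnip3, an inhibitor that binds the deubiquitinase A20, stood at 551 CPM in WT HFD and 150.5 CPM in CKO HFD and at 337 and 234 CPM in WT and CKO on the normal diet, so CKO was the lower library under both diets. Its ratios were 0.273 (0.26 to 0.288) and 0.695 (0.645 to 0.748). Rel, an NF-kB subunit, stood at 252 and 119 CPM (ratio 0.475, 0.445 to 0.506), and Irak2, a kinase adaptor of Toll-like receptors, at 81.6 and 32.9 CPM (ratio 0.403, 0.358 to 0.453). Nfkbia, the inhibitor IkB-alpha, and Zfp36, which degrades cytokine mRNA, were within 1.5 times at ratios of 1.06 and 1.32. Il1b, the inflammasome cytokine, was level at 347 and 348 CPM under HFD and stood at 768 and 499 CPM in WT and CKO on the normal diet.

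Of 69 tested macrophage transcription factors 20 were lower, where 20.1% of all tested genes were, and 3 higher. Relative to the median of all genes 14 were lower and 10 higher, where 827 and 841 of all 7797 tested genes were. The list had a median log2 ratio of −0.16. That median was −0.01 with the span trend off and 0.08 under TMM scaling. Nr4a3, an immediate-early nuclear receptor, stood at 58.5 CPM in WT HFD and 15.6 CPM in CKO HFD and at 255 and 175 CPM on the normal diet, so both HFD libraries were low and CKO HFD the lowest (ratio 0.266, 0.226 to 0.312). Mitf, a regulator of lysosomal genes, stood at 223 and 74.5 CPM (ratio 0.334, 0.309 to 0.36), a log2 ratio of −1.57 that was −0.67 with the span trend off. Of 18 tested integrins and adhesion genes 9 were lower and 1 higher, where 20.1% and 5.68% of all tested genes were. With the span trend off 4 were lower, where 5.69% of all tested genes were. Their median log2 ratio of −0.61 was −0.06 with the span trend off. Itgav, the alpha-V integrin, stood at 108 and 35.9 CPM (ratio 0.332, 0.298 to 0.371, log2 −1.08 with the trend off), and Cd44, the hyaluronan receptor, at 864 and 437 CPM (ratio 0.506, 0.49 to 0.524). The log2 ratio of Cd44 was −0.49 with the trend off, which is no longer past the fold.

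Cell division genes had 13 of 40 tested members lower under HFD, where 20.1% of all tested genes were, and none higher, a median log2 ratio of −0.32. The lower members numbered 6 with the span trend off, where 5.69% of all tested genes were lower. Relative to the median of all genes 4 were lower, where 827 of all 7797 tested genes were. On the normal diet 5 of 36 were higher in CKO and none lower, a median of 0.35. Over all genes tested on that diet 1.38% were higher and 1.12% lower. The dividing set was found in 12.7% of WT HFD cells (11.8 to 13.7) and 9.85% of CKO HFD cells (9.16 to 10.6), and in 6.21% and 8.45% of ND cells. At full depth the HFD shares were 25% and 14%. At 2000 UMIs it was found in 0% and 1.96% of the 39 and 51 fibroblast-like cells. Mki67, the standard proliferation marker, stood at 113 CPM in WT HFD and 51.9 CPM in CKO HFD and at 33.9 and 46.3 CPM on the normal diet (ratio 0.458, 0.416 to 0.504), with WT HFD highest. Within dividing-set cells its ratio was 0.585; it also defines that set. The abundant members Tubb5, Hmgb2 and H2afz were within 1.5 times, at ratios of 0.946, 0.915 and 1.19.

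Of 10 tested replication-dependent histone genes 7 were lower, against 20.1% of all tested genes, and none higher, with a median log2 ratio of −1.02. The list summed to 518 CPM in WT HFD and 268 CPM in CKO HFD. In fibroblast-like cells it summed to 321 and 157 CPM, in the same order but from only 25 and 16 UMIs. Hist1h1b, a linker histone, stood at 73.3 CPM in WT HFD and 26.6 CPM in CKO HFD and at 9.5 and 9.13 CPM on the normal diet (ratio 0.363, 0.319 to 0.413). Hist1h4d stood at 57.1 and 14.9 CPM (ratio 0.261, 0.221 to 0.307). WT HFD was the high library for both. Histone genes are near-identical copies between which reads can be split, and most of their mRNAs lack a poly(A) tail, so a 3′ poly(A) assay captures them in part.

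Complement genes had 7 of 13 tested members higher, where 5.68% of all tested genes were, and none lower. Their median log2 ratio was 0.59. That median was 0.28 with the span trend off and 0.15 without the marker rule. C1qa and C1qc, subunits of the initiator C1q, stood at 2412 and 3626 CPM and at 1505 and 2410.4 CPM, ratios of 1.5 (1.48 to 1.53) and 1.6 (1.57 to 1.63); C1qb was within 1.5 times at 1.16. C1qa and C1qb chose the cells, and so are not independent of the rule. C1qa is also among the 7 higher genes, and the list medians of 0.59 and 0.28 are its own log2 ratios. With the span trend off the log2 ratios of C1qa and C1qc were 0.28 and 0.53, neither past the fold. C3, the central component, stood at 27.9 CPM in WT HFD and 58.5 CPM in CKO HFD and at 22.4 and 8.95 CPM in WT and CKO on the normal diet, with ratios of 2.1 (1.82 to 2.43) and 0.399 (0.279 to 0.564), on opposite sides of 1. The log2 ratio of C3 under HFD was 1.04, and 0.15 when cells were not chosen by macrophage markers. In fibroblast-like cells C3 stood at 6244 and 3931 CPM, in the opposite order to macrophages.

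Genes of matrix remodelling had 5 of 23 tested members higher, where 5.68% of all tested genes were, and 2 lower. The median log2 ratio of −0.06 turned to 0.21 with the span trend off and to 0.18 under TMM scaling. Timp1, an inhibitor of metalloproteinases, stood at 8.43 CPM in WT HFD and 35.4 CPM in CKO HFD and at 4.75 and 4.12 CPM on the normal diet, with CKO HFD the high library at a ratio of 4.2 (3.29 to 5.43). Cst3, the protease inhibitor cystatin C, stood at 1976 and 3918 CPM (ratio 1.98, 1.95 to 2.02) and Fn1, fibronectin, at 812 and 822 CPM (ratio 1.01). In fibroblast-like cells Cst3 stood at 2692 and 4618 CPM, in the same order, and Timp1 at 256 and 118 CPM, in the opposite order. Among 18 tested iron and heme genes 5 were higher and 1 lower, where 5.68% and 20.1% of all tested genes were. Cp, the ferroxidase ceruloplasmin, stood at 9.89 CPM in WT HFD and 46.4 CPM in CKO HFD (ratio 4.69, 3.75 to 5.93) and at 44.2 and 37.9 CPM on the normal diet, so that WT HFD was the low library. The ferritin chains Fth1 and Ftl1 were within 1.5 times, at ratios of 1.24 and 0.785.

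Antigen presentation genes were mostly within 1.5 times. Of 12 tested MHC class II genes none was higher and 1, Ciita, was lower, with a median log2 ratio of 0.15, and the invariant chain Cd74 stood at 14734 CPM in WT HFD and 18178 CPM in CKO HFD. H2-Eb1, a class II beta chain, was at a ratio of 1.45 (1.43 to 1.46) under HFD and 0.786 (0.772 to 0.80) under ND. Of 21 class I and proteasome genes 1 was higher and 1 lower. Unfolded protein response genes had 7 of 23 members lower, where 20.1% of all tested genes were, and 1 higher, with a median log2 ratio of −0.35. Relative to the median of all genes 3 were lower and 3 higher, where 827 and 841 of all 7797 tested genes were. Ern1, a sensor of this response that splices Xbp1, stood at 60.9 and 19.6 CPM (ratio 0.321, 0.277 to 0.372). Hspa5, the main chaperone of the endoplasmic reticulum, stood at 968 and 639 CPM (ratio 0.66, 0.641 to 0.68). That ratio was just past the fold and within it under TMM scaling. None of 17 glycolysis genes was higher and 3 were lower, and of 16 cholesterol synthesis genes 1 was higher and 2 lower. Over all tested genes 5.68% were higher and 20.1% lower. The medians of both lists, −0.20 and −0.09, became 0.03 and 0.14 under TMM scaling.

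**Figure D4:**
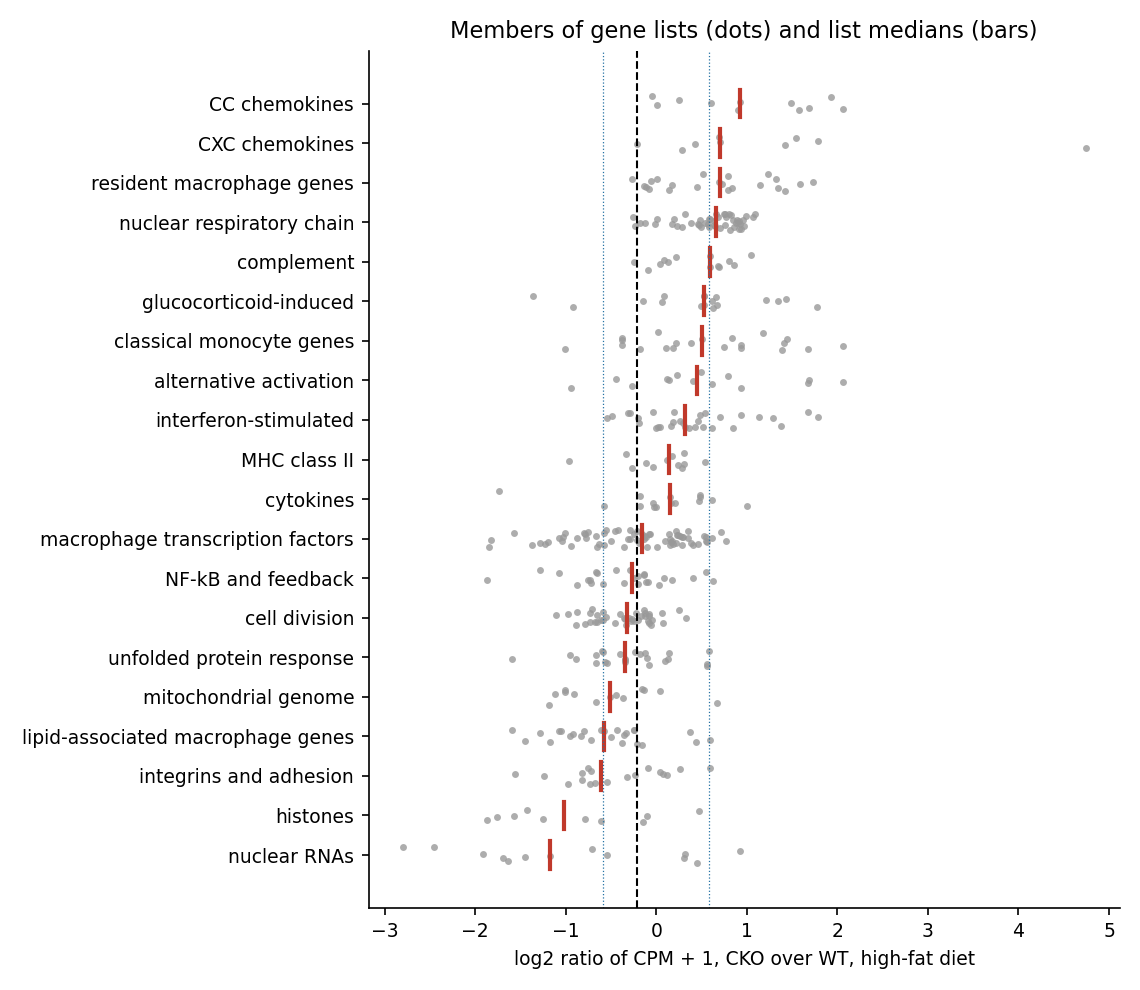
Log2 ratio of CPM + 1, CKO over WT under HFD (horizontal), of the tested members of gene lists (dots) with list medians (bars), and the median of all tested genes as a dashed line at −0.21. The bars of the CC and CXC chemokine, resident and nuclear-encoded respiratory lists lie between 0.66 and 0.92, and those of the nuclear RNA and histone lists at −1.17 and −1.02.

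The genotype differences were next read within cell sets, since the sets differed in size. Here resident-set cells are those positive for that set alone, 806 in WT HFD and 2790 in CKO HFD. Likewise lipid-associated-set cells are positive for that set alone, 1240 and 1002 cells. Dividing-set cells may be positive for another set too. The rule found 7.52% of genes higher and 22% lower within resident-set cells, 6.99% and 27.1% within lipid-associated-set cells, 8.19% and 22.3% within dividing-set cells, and 7% and 27.5% among cells of no set. The CC chemokine list had median log2 ratios of 0.61, 1.60 and 0.99 in resident-set, lipid-associated-set and set-free cells. Ifitm3 had ratios of 2.36, 4.23, 2.96 and 3.12 in resident-set, lipid-associated-set, dividing-set and set-free cells, and Arg1 of 7.08, 3.85, 2.45 and 5.47. For Ccl24 the ratios were 1.77, 11.8, 2.63 and 6.21, widest in lipid-associated-set cells. The interferon list had a median of −0.01 in resident-set cells and the complement list of −0.03 in lipid-associated-set cells. The median of all genes within those sets is not given here, so these values lack that background. These sets rest on UMIs of 6 genes each at 2000 UMIs, so they are ranges of cells rather than cell types.

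**Figure D5:**
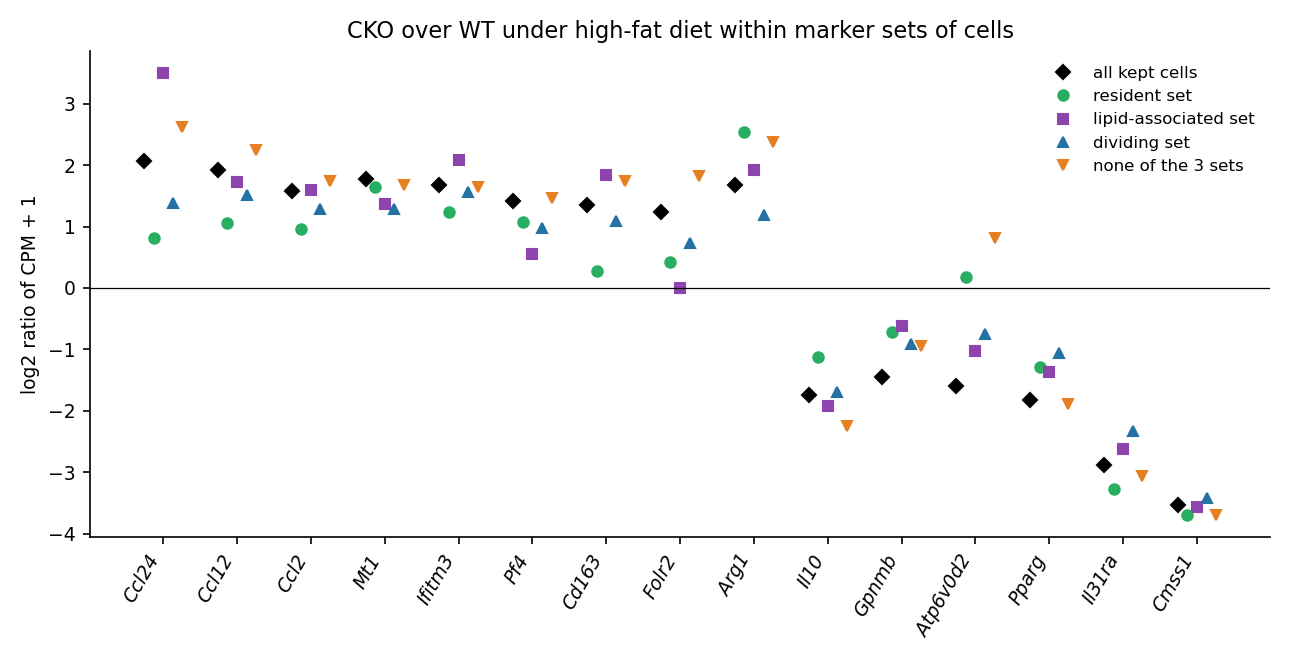
Log2 ratio of CPM + 1, CKO over WT under HFD (vertical), of 15 genes in all members and in resident-set, lipid-associated-set, dividing-set and set-free cells, with 1 symbol per cell set. Ccl2, Ccl12, Mt1 and Ifitm3 lie above 0 and Il10, Il31ra and Cmss1 below 0 in every set, while Folr2 and Cd163 approach 0 in resident-set cells, where they were used to define the set. Resident-set and lipid-associated-set cells are positive for that set alone.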

How the data were processed

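The authors' deposited matrices hold raw UMI counts per gene and cell, written by Cell Ranger 7.0.0 per the file headers on build GRCm38 per the submitters' processing notes. The sources used here state neither whether intron reads were counted nor on which strand. Cells were filtered, thinned by hypergeometric sampling with a fixed seed, pooled and scaled to CPM (numpy 2.4.6, scipy 1.17.1, pandas 2.3.3). The alternatives used edgeR 4.0.16 for TMM factors and scanpy 1.11.5 for doublet scores. Doublets were kept in the values reported. Spans come from the GENCODE M21 annotation and promoter sequences from RefSeq. Ratios and their intervals were checked on simulated cells drawn from a single profile per library. Spread between cells was therefore not part of that check.

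The members and the 54 gene lists were chosen with earlier results of these data known. Named genes were the 25 highest and 25 lowest by the ratio of levels with 10 CPM added, where the higher library had 50 CPM and 100 UMIs or more, and the 15 highest and 15 lowest after the span trend was taken off. Mitochondrial, ribosomal protein, haemoglobin, immunoglobulin, T cell receptor and predicted genes, sex genes and genes of other cell types were left out of these ranks. Added to them were Prdm1, the 5 markers and, from each list, the 3 most abundant and the 3 most different members. Filters, depth, scaling, pseudocount and cell sets were varied in 18 alternatives.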

Additional observations from a re-analysis of the deposited data

Results flagged for a closer look

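For 7 of the named genes the log2 ratio of CKO over WT differed in sign between the diets, both past 1.5 times. Over all tested genes 15 were higher under HFD and lower on the normal diet, and 12 the reverse. Each diet has 1 library per genotype, so the difference between the diets was not tested. The log2 ratio under HFD minus that under the normal diet was 3.00 for Cxcl9, 3.01 for Mmp9, 2.31 for Mmp14, 2.28 for C3 and 1.66 for Bcl2a1a, all higher in CKO under HFD and lower in CKO on the normal diet. It was −2.51 for Hist1h4d and −1.75 for Cenpe, a mitotic kinesin, in the opposite order. Most of these genes are low, with 24 UMIs of Mmp9, 55 of Mmp14 and 67 of Cxcl9 in WT HFD. Mmp9, gelatinase B, stood at 2.7 and 10.7 CPM in WT and CKO under HFD and at 103 and 39.9 CPM on the normal diet. Mmp14, a membrane-bound collagenase, stood at 6.18 and 15.1 CPM and at 12.7 and 5.19 CPM. Bcl2a1a, a survival gene with near-identical copies such as Bcl2a1b, stood at 20.1 and 42.5 CPM and at 49 and 31.7 CPM.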

How the results depend on the processing

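No paired analysis was possible because each group holds 1 library. The 443 higher and 1569 lower genes became 841 and 827 when the ratios were centred on their median. Under TMM factors they became 910 and 748 and the median log2 ratio 0.0286. With the span trend taken off there were 444 lower genes. A minimum of 50 CPM gave 273 and 693 of 3112 genes, a minimum of 1 CPM 736 higher genes of 11894, and a pseudocount of 10 CPM 901 lower genes. Other draws and depths of thinning, no thinning, other marker rules, a lower mitochondrial limit and removal of top doublet scores left counts within 1.5 times. Of the 270 named genes 182 were at least 1.5 times apart, and all 182 kept their direction in each of the 18 alternatives in which they were measured. Among those described above, some came within the fold: Bach2, Cd44 and Retnla with the span trend off, C3 without the marker rule, Ctsl, Plin2, Dusp1, Rnase4 and Retnla in set-free cells, Hspa5 under TMM scaling, and C1qa, C1qc, Ang, Mgl2 and Hspa1b in several alternatives. Atp6v0d2 was under the minimum level when only set-free cells were used. List medians of the CC and CXC chemokine, resident, monocyte, interferon, nuclear-encoded respiratory, complement and glucocorticoid lists stayed above 0 and those of the lipid-associated, histone, nuclear RNA and integrin lists below 0 in every alternative run. Relative to the median of all genes the lipid-associated median was 0.04 in set-free cells. In the main values the complement median is that of C1qa, a marker of the rule. Genes under about 10 CPM rest on few UMIs, and WT HFD members lost most of their depth to thinning.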

Other observations

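Crip1, a small LIM protein, stood at 3146 CPM in WT HFD and 7804 CPM in CKO HFD (ratio 2.48, 2.45 to 2.51) and at 4560.0 and 4603 CPM in WT and CKO on the normal diet. In fibroblast-like cells it stood at 1192 and 3814 CPM, a shift of the same direction. Fxyd2, a regulatory subunit of the sodium pump, stood at 88.7 and 316 CPM (ratio 3.56, 3.3 to 3.85) and at 138 and 145 CPM on the normal diet, with CKO HFD the high library for both. Marcksl1, an actin-binding protein, had a ratio of 2.54 (2.39 to 2.69), but here both ND libraries were higher still at 776 and 615 CPM. Wfdc17, a secreted antiprotease-like protein, stood at 375 and 967 CPM (ratio 2.57, 2.48 to 2.67) and at 620.4 and 691 CPM on the normal diet.

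Secreted ribonucleases differed among themselves. Of 7 tested 4 were higher and 1 lower, where 5.68% and 20.1% of all tested genes were. Rnase4 and Ang overlap in the genome, so that reads could be split. Their ratios were 1.7 (1.59 to 1.81) and 1.88 (1.65 to 2.15) under HFD and 1.6 (1.47 to 1.75) and 1.94 (1.56 to 2.41) under ND. Within resident-set cells the ratios were 1.01 and 0.983, and that of Rnase4 in set-free cells was 1.25. Ear2, one of a group of near-identical copies, stood at 386 and 201 CPM (ratio 0.521, 0.495 to 0.547).

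Of the cells that passed the other filters, the marker rule removed 171 from WT HFD and 995 from CKO HFD. The CKO HFD cells with exactly 1 marker had a median of 3345 UMIs, and a further 708 CKO HFD cells were too shallow to thin, against 29 in WT HFD.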
